A study of Homo sapiens with 8 samples.

Results

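The SOX transcription factors of neural progenitors were examined as 10 named genes, SOX1, SOX2, SOX3, SOX4, SOX5, SOX6, SOX8, SOX9, SOX11 and SOX21. All 10 were found by symbol among the 17504 genes of the deposited table, and all 10 were among the 13468 genes with enough counts to test. The data were bulk RNA sequencing of human brain organoids at day 30, grown from IMR90-4, an induced pluripotent stem cell line. The 3 control libraries came from organoids of the FCT line, labelled WT, and the 3 knockdown libraries from organoids of the FKD line, labelled FABP7 knockdown. Each group therefore stands for a single derived line, and any other difference between the lines cannot be told apart from the loss of FABP7. The series' design text also names adipogenic differentiation, which the tissue label does not. No label says that the replicates were separate cultures, and the p-values may therefore reflect technical spread alone.

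SOX proteins bind DNA through a high mobility group (HMG) box, which sits in the minor groove and bends the helix. They are grouped by the likeness of that box. The SOXB1 group (SOX1, SOX2, SOX3) keeps neural precursors undifferentiated, and the SOXB2 factor SOX21 opposes it in chick and favours differentiation. The SOXC group (SOX4, SOX11) switches on neuronal genes as precursors leave the cycle. The SOXD group (SOX5, SOX6) has no activation domain of its own and times neuronal and glial fates, while the SOXE group (SOX8, SOX9) prepares progenitors for gliogenesis.

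The members divided between the groups. SOX2 and SOX3 were higher in knockdown, SOX4 and SOX21 were lower, and smaller differences were called for SOX6 (higher) and SOX11 (lower). In the edgeR quasi-likelihood test, at a Benjamini-Hochberg adjusted p threshold of 0.05 over all tested genes, 3 of the 10 members were higher and 3 lower. Of all tested genes 51.7% were called, 26.4% higher and 25.3% lower, so the count of members called was close to the background. The median log2 fold change, knockdown minus control, was -0.05 over the members and -0.01 over all tested genes. The sizes were modest: 4 of the 10 members had an absolute change at or above the median of 0.22 over all genes. The groups did not overlap in 7 of the 10 members, against 57.3% of all tested genes. Knockdown lay above control in 3 of these members, against 29.1% of genes, and below in 4, against 28.2%. In bulk samples fewer cells of a type and less RNA per cell cannot be told apart, for any of these values.

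Promoter sequence is shown for the 4 members whose call held under every alternative setting run. Each run is the 250 bases before the RefSeq gene start on GRCh38.p14, 5′ to 3′ on the strand of the gene, with capitals marking matches to ACAAAG (a core that SOX proteins bind), CCAAT or TATAAA on either strand.
SOX2 (chr3:181711675-181711924, plus strand): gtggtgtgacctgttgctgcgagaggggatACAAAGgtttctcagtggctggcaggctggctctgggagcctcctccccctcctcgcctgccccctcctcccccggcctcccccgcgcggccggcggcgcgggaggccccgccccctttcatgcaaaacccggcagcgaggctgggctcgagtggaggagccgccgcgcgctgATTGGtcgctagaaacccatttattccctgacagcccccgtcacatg
SOX3 (chrX:140505070-140505319, minus strand): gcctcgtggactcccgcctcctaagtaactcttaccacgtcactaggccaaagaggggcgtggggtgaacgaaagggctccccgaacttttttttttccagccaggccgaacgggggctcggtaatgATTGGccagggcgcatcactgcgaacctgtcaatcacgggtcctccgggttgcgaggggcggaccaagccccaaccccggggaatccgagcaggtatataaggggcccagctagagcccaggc
SOX4 (chr6:21593501-21593750, plus strand): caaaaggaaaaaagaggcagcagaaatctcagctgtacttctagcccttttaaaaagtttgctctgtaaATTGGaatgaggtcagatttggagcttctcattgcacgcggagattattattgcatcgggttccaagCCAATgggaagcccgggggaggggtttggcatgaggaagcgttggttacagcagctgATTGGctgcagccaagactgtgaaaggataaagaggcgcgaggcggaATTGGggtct
SOX21 (chr13:94712546-94712795, minus strand): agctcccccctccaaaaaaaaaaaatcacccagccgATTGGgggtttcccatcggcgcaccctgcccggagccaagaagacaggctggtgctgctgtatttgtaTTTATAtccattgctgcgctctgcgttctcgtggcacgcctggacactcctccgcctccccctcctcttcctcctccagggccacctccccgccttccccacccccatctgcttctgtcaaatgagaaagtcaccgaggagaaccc
RefSeq promoter windows matched 7 of the 10 members (SOX1, SOX2, SOX3, SOX4, SOX5, SOX6 and SOX21). Each of the 4 printed windows held CCAAT or its reverse complement ATTGG, the element bound by NF-Y, and SOX4 held 4 copies. SOX1, SOX5 and SOX6 had none, and 32.3% of the windows of genes in the table held it. SOX8, SOX9 and SOX11 had no window to search. The printed genes were chosen by their calls and differ in direction, SOX2 and SOX3 higher and SOX4 and SOX21 lower. A link of CCAAT to these changes was not tested. The planned search named only ACAATG and ACAAAG, and CCAAT and TATAAA were added to it. The SOX core ACAAAG was found in SOX2 alone, against 10.9% of windows, and ACAATG in SOX5 alone, against 6.21%. SOX21 held TATAAA on the strand opposite to the gene, where the printed run reads TTTATA, and 7.46% of windows held it on either strand. A match describes these letters only and is no evidence of binding.

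The libraries were close in depth. Estimated counts summed to between 13424959 and 15675888 per library, and 3 counts corresponded to 0.188 to 0.217 CPM (counts scaled to a common library total). Log2 CPM correlated at 0.994 to 0.995 between libraries of a group and at 0.975 to 0.977 between groups, across genes, which are not independent replicates. FABP7, the targeted radial glial lipid carrier, fell from 193 ± 2.22 to 1.01 ± 0.0547 CPM (SD, n = 3 each). The labelled tissue's neuronal and radial glial markers TUBB3 and VIM were at 822 and 1089.9 CPM in control. Together the SOX members took 0.175 to 0.181% of the counts of a control library and 0.154 to 0.162% of those of a knockdown library.

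Levels of different genes are compared in TPM, a relative transcript abundance scaled by transcript length and library. In control the order was SOX4, at 200.4 ± 5.08 TPM, then SOX2 at 140.2 ± 6.7, SOX11 at 109 ± 2.45 and SOX9 at 34.3 ± 0.661. SOX1, SOX3, SOX8, SOX21, SOX6 and SOX5 followed, from 28.9 down to 4.45 TPM. In knockdown SOX2 came first, at 185 ± 3.66 TPM, ahead of SOX4 at 127 ± 5.47 and SOX11 at 86.6 ± 2.66. SOX3, at 33.8 ± 0.287 TPM, then stood above SOX9, at 28.98 ± 1.7, and SOX1, at 24.8 ± 0.427 (SD, n = 3 throughout). Within each group the 3 libraries of neighbours in the order did not overlap for any pair of neighbours. SOX2 and SOX4 thus exchanged places, and SOX3 passed SOX1 and SOX9.

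**Figure D1:**
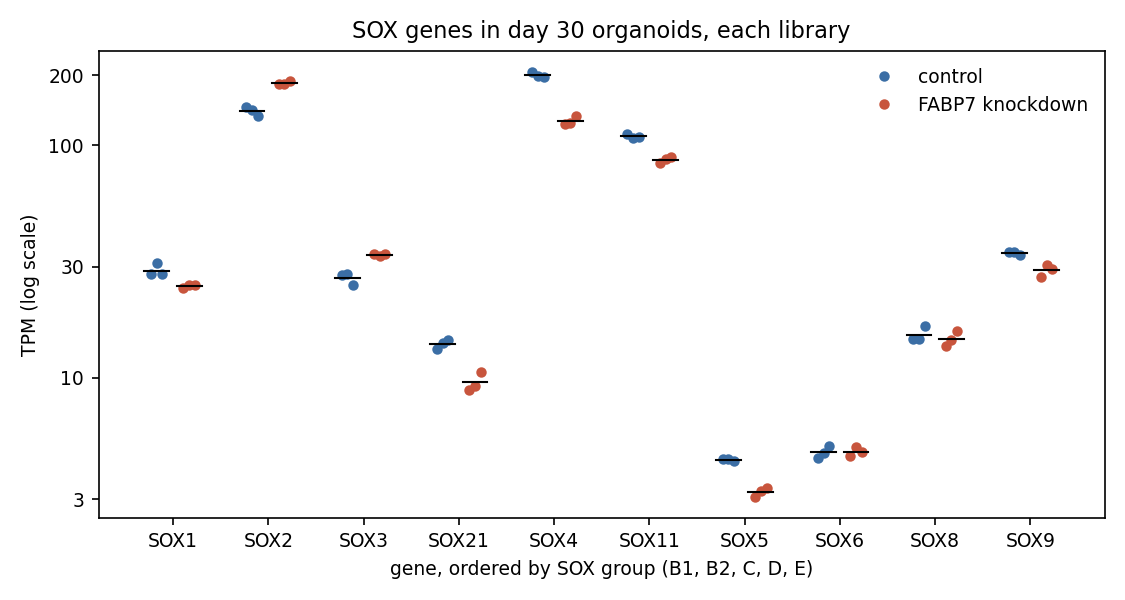
TPM of each SOX gene in each library on a log axis, 3 control (blue) and 3 FABP7 knockdown libraries (red), with bars at the group means. SOX2 and SOX3 lie higher in knockdown and SOX4, SOX11, SOX21 and SOX5 lower, and on this scale, whose median gene was lower in knockdown by 0.16 on the log2 scale, SOX1 and SOX9 also lie lower.

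As a share of the summed TPM of the 10 members, the SOXB1 group went from 33.9 ± 0.933% in control to 47.0 ± 0.629% in knockdown. The SOXC group went from 53.5 ± 0.676% to 41.2 ± 0.335%. The SOXE group took 8.59 ± 0.277% and 8.43 ± 0.308%, and the SOXD group 1.6 ± 0.0765% and 1.55 ± 0.0484%. SOX21 took 2.42 ± 0.167% and 1.84 ± 0.128%. Shares within a library do not depend on the scaling between libraries, but a rise in 1 member lowers the share of the others.

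Within the SOXB1 group SOX2 and SOX3 rose, and SOX1 did not pass the test. SOX2, a core factor of neural stem cells and of pluripotency (NCBI Gene 6657, chromosome 3, 181711925 to 181714436 on GRCh38), was at 216, 209 and 194 CPM in control replicates 1, 2 and 3. In knockdown it was at 306, 306 and 312 CPM, and every knockdown library lay above every control. These CPM are scaled by the trimmed mean of M-values (TMM). The log2 fold change was 0.58 ± 0.04 (SE), a 1.49-fold rise (edgeR adjusted p = 9.73e-11). Leaving out any single library kept it between 0.54 and 0.61.

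SOX3, the X-linked member that acts beside SOX2 in the neural plate and hypothalamus (NCBI Gene 6658, chromosome X, 140502985 to 140505069), was at 33.0, 32.9 and 29.5 CPM in control. The knockdown libraries, at 46.1, 45.2 and 45.2 CPM, all lay above them. Its log2 fold change of 0.52 ± 0.06 (SE) was a 1.43-fold rise (edgeR adjusted p = 3.82e-07). SOX1, the most neural-restricted of the group (NCBI Gene 6656, chromosome 13, 112067149 to 112071706), was at 78.9, 87.5 and 78.3 CPM in the controls. The knockdown libraries were at 78.3, 80.6 and 79.8 CPM. These ranges overlapped. The log2 fold change was -0.03, with a 95% interval of -0.14 to 0.07 (edgeR adjusted p = 0.606). SOX2 made up 70.8 to 72.5% of the summed SOXB1 TPM in control libraries and 75.8 to 76.2% in knockdown.

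SOX21, the SOXB2 factor (NCBI Gene 11166, chromosome 13, 94709622 to 94712545), fell. The controls were at 23.2, 24.5 and 25.2 CPM, and the knockdown libraries, at 17.6, 18.2 and 20.8 CPM, all lay below them. The log2 fold change was -0.36 ± 0.08 (SE), 22.2% less (a percent change of -22.2), with an edgeR adjusted p of 0.000592. Knockdown replicate 3 lay nearest to the controls, and without it the log2 fold change was -0.44.

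Both SOXC genes were lower, by different amounts. SOX4 (NCBI Gene 6659, chromosome 6, 21593751 to 21598619), a factor of young neurons and of intermediate progenitors in mouse, was at 627, 599.6 and 595 CPM in control. It was at 426, 431 and 456 CPM in knockdown, far outside the control range. Its log2 fold change was -0.47 ± 0.04 (SE), 1.39-fold lower (edgeR adjusted p = 1.21e-09), and lay between -0.50 and -0.45 with any library left out. SOX11 (NCBI Gene 6664, chromosome 2, 5692384 to 5701385), which drives pan-neuronal genes after cell cycle exit, was at 646, 620.5 and 622 CPM in the controls. It was at 551, 576 and 579 CPM in the knockdown libraries. The groups did not overlap. Its log2 fold change was -0.15 ± 0.04 (SE, edgeR adjusted p = 0.00286). It was -0.02 once trends of log2 CPM with length and GC content had been taken out of every library (limma adjusted p = 0.521), where SOX4 kept a log2 fold change of -0.37. That correction also takes out any difference between the groups that follows length or GC content. The SOX11 transcript is long, at 8719 bases against a median of 3558. An annotated non-coding gene on the same strand overlaps the exons of SOX11, and an antisense gene those of SOX4, and strand use in the counting is not given in the sources used here.

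The SOXD genes moved little. SOX6, which in mouse cortex marks progenitors and interneurons of the medial ganglionic eminence (NCBI Gene 55553, chromosome 11, 15966449 to 16738477), was at 25.8, 27.4 and 28.9 CPM in control. It was at 30.1, 32.9 and 30.9 CPM in knockdown, just above the controls. The log2 fold change was 0.20 ± 0.07 (SE, edgeR adjusted p = 0.0222). Its call was lost without control replicate 1 (edgeR adjusted p = 0.124) or knockdown replicate 2 (0.117), in the DESeq2 Wald test (0.0769) and with scaling by library totals (0.137). On log2(TPM + 1) the log2 fold change was 0.0071 (limma adjusted p = 0.939). The exons of SOX6 overlap those of C11orf58 on the other strand.

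SOX5, which in mouse controls the order in which deep layer neurons are made (NCBI Gene 6660, chromosome 12, 23529504 to 24562650), did not pass the test. Its controls were at 21.7, 19.6 and 21.6 CPM, and its knockdown libraries, at 17.7, 18.6 and 19.2 CPM, lay below them. The log2 fold change was -0.18 ± 0.08 (SE, edgeR adjusted p = 0.0588), and 8 alternatives passed the threshold, among them leaving out control replicate 2 (adjusted p = 0.0234) and log2(TPM + 1) (-0.36, adjusted p = 0.00175). SOX5 was also the only member whose estimated counts were not whole numbers in every library, while 9 members had whole counts throughout. Counts per TPM, which follow the transcript length the authors' software assigned, are given here relative to the median gene of a library. For SOX5 that quantity was 2.59, 2.36 and 2.66 in control and 2.71, 2.7 and 2.71 in knockdown, a log2 difference of 0.09. The other 9 members differed by at most 0.0037 in either direction, and the 95th percentile of the absolute difference over 8802 genes of at least 5 TPM, a level that SOX5 did not reach, was 0.0748. Without control replicate 2 the SOX5 difference was 0.044, below that percentile, so its size rests on that library.

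The SOXE genes did not pass the test. SOX9, required in mouse for neural stem cell maintenance and the start of gliogenesis (NCBI Gene 6662, chromosome 17, 72121020 to 72126416), was at 84.2, 83.2 and 80.5 CPM in control. It was at 74.7, 83.9 and 79.6 in knockdown, which overlaps the controls. The log2 fold change was -0.06, with a 95% interval of -0.16 to 0.04 (edgeR adjusted p = 0.357). SOX8, its close relative (NCBI Gene 30812, chromosome 16, 981770 to 986979), was at 27.2, 27.1 and 30.8 CPM in the controls. Its knockdown libraries, at 29.04, 30.5 and 33.1 CPM, overlapped them. Its log2 fold change was 0.12, with an interval of -0.02 to 0.27 (edgeR adjusted p = 0.162). Without control replicate 3 it was 0.19 (adjusted p = 0.0344), and with the length and GC trend removed 0.22 (adjusted p = 0.0306).

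**Figure D2:**
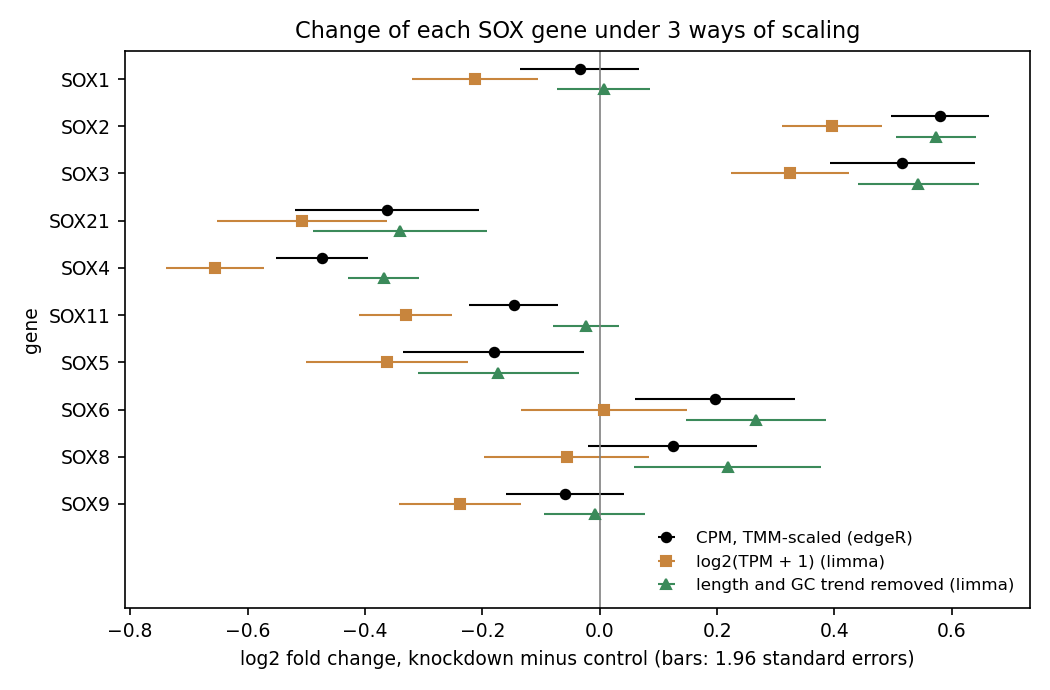
Log2 fold change of each SOX gene, knockdown minus control, with 95% intervals as bars, from TMM-scaled counts, from log2(TPM + 1) and after removal of length and GC trends. SOX2 and SOX3 lie to the right of 0 and SOX4 and SOX21 to the left in all of them, whereas SOX11 moves to -0.02 when the trends are removed.

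The scale mattered for the smaller values. On log2(TPM + 1) the median log2 fold change of all genes was -0.16, and 2 members were called higher and 6 lower, with SOX1 (-0.21), SOX9 (-0.24) and SOX5 added to the lower ones. Of the 12411 genes tested on log2(TPM + 1), 1475 were called higher and 5694 lower. The share of called genes that were higher was 51.1% with TMM and 20.6% on log2(TPM + 1). Relative to the median of -0.16, all members had the sign they had under TMM. SOX1 was then at -0.055, SOX9 at -0.081, SOX8 at 0.10 and SOX6 at 0.16.

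Ratios within a library avoid that scaling. The log2 ratio of SOX4 to SOX2 counts went from 1.56 ± 0.0521 in control to 0.51 ± 0.0352 in knockdown, a difference of -1.05 (SD, n = 3 each). In TPM the SOX2 level was 0.707, 0.719 and 0.674 times that of SOX4 in the control libraries and 1.48, 1.47 and 1.42 times in the knockdown libraries. The difference in log2 ratio to SOX2 was -0.95 for SOX21, -0.76 for SOX5, -0.73 for SOX11, -0.64 for SOX9, -0.62 for SOX1, -0.46 for SOX8 and -0.39 for SOX6. SOX3 differed least from SOX2, by -0.06, from -2.70 ± 0.0255 to -2.76 ± 0.0294 (the nearest libraries of the groups were at -2.71 and -2.73). In each of the 9 ratios all 3 knockdown libraries lay below all 3 controls. That shared direction follows from the choice of SOX2, the member with the largest rise, as the reference. The exact two-sided permutation test gave p = 0.1 for each, also after Benjamini-Hochberg adjustment over the 9, and 0.1 is the smallest p that 3 against 3 libraries allow.

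**Figure D3:**
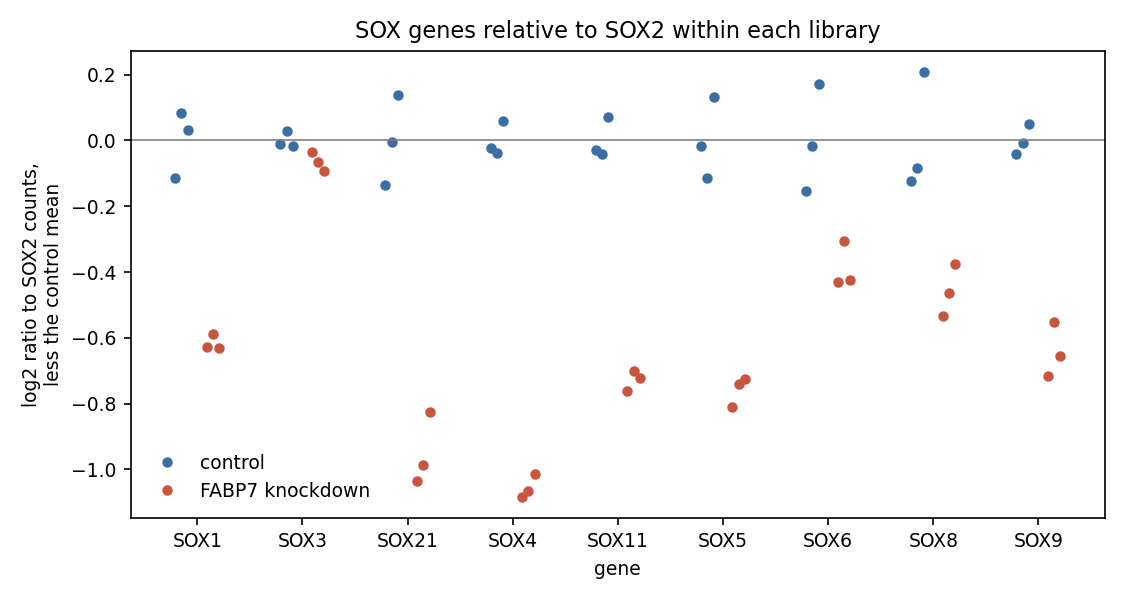
Log2 ratio of each SOX gene's counts to those of SOX2 in the same library, less the mean of the 3 control libraries, for control (blue) and FABP7 knockdown (red). SOX4 falls furthest, by 1.05, SOX1 falls by 0.62 and SOX3 stays within 0.1 of the controls.

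Genes near the members on their chromosomes gave a local background. Among the 20 tested genes nearest to SOX2, spanning 4.51 Mb, 12 were called higher and 3 lower, and the median was 0.20 on the log2 scale. The part of that neighbourhood in the SOX2 value was not tested. Around SOX3 the median was 0.02, with 3 higher and 5 lower, around SOX4 it was 0.11, with 8 higher and 3 lower, and around SOX21 it was 0.12, with 9 higher and 4 lower. SOX4 and SOX21 therefore fell among genes whose median was above 0.

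By likeness over the 6 libraries, after each gene was centred on its mean log2 CPM, the genes nearest to SOX2 were IGFBP4, LYPD1 and CDKN1B. Their root mean square differences from it were 0.0157, 0.0333 and 0.0348 on the log2 scale. The nearest to SOX4 were PTP4A2, SOBP and PBX3, at 0.0221, 0.0242 and 0.0281. Any gene with a like fold change between the groups lies near by this measure: 361 of 10859 genes lay within 0.1 of SOX2 and 697 within 0.1 of SOX4.

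Other SOX genes were mostly low, and those called were lower in knockdown. Of 9 listed, 8 were in the table and 5 could be tested, of which 3 fell and none rose. Of all tested genes 25.3% were called lower and 26.4% higher. SOX10, the neural crest and oligodendrocyte factor, fell from 1.79 ± 0.305 to 0.45 ± 0.108 CPM (SD, n = 3 each, 3.9-fold lower, edgeR adjusted p = 1.91e-05). SOX15, known from placenta and muscle in mouse, fell from 2.01 ± 0.498 to 0.561 ± 0.097 CPM (-1.83, adjusted p = 2.34e-05). SOX13, a SOXD gene, fell from 8.73 ± 1.3 to 4.81 ± 0.601 CPM (-0.85, adjusted p = 1.97e-05). The 20 tested genes nearest to SOX13 on chromosome 1 had a median of -0.60, with 17 called lower and 1 higher, and its value cannot be told apart from that of its surroundings. SOX12, the third SOXC gene, was at 65.9 ± 9.09 and 63.2 ± 2.66 CPM (-0.06, adjusted p = 0.578), but at -0.17 without control replicate 3 (adjusted p = 0.00994). SOX7 was at 0.91 and 0.54 CPM (adjusted p = 0.115). SOX14, SOX17 and SOX30 had 1, 0 and 30 counts over the controls and 4, 1 and 24 over the knockdown libraries, too few to test.

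Of 14 known partners of SOX factors, which include the POU3F factors that bind beside SOX2 and the TLE corepressors, 2 were higher, 6 lower and 6 not called, against 26.4% higher and 25.3% lower of all tested genes, and the median was -0.13 on the log2 scale. TLE1 fell from 82.2 to 49.5 CPM (-0.73, edgeR adjusted p = 4.72e-11) and TLE4 from 70.9 to 50.8 CPM (-0.48). PAX6, which shares enhancers with SOX2 in eye and cortex, fell from 177 to 149 CPM (-0.25), whereas POU3F2 rose from 101 to 123 CPM (0.28). On log2(TPM + 1) none of the partners was called higher, 10 were called lower, and POU3F2 lost its call (limma adjusted p = 0.126). Scaling by library totals, or leaving out knockdown replicate 2, left 1 called higher, and removal of the length and GC trends gave 4.

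Genes that SOXB1 factors are known to bind or activate in progenitors did not move one way. Of 15 tested, 6 were higher and 5 lower, FABP7 itself among the latter, with a median of 0.01. Over all tested genes the shares were 26.4% higher and 25.3% lower. HES5, a Notch effector, rose from 17.4 to 28.1 CPM (0.69, edgeR adjusted p = 1.85e-07), while LIN28A, a translation regulator of early precursors, fell from 8.48 to 4.58 CPM (-0.88). With library totals or on log2(TPM + 1), 2 were called higher. Leaving out control replicate 1 or knockdown replicate 1, 2 or 3 gave 3 lower, and without knockdown replicate 3 there were also 3 higher. Radial glia markers, which share 8 genes with that list, showed 4 of 14 higher and 7 lower, with a median of -0.09. HES5, which is on both lists and had the smallest p among the radial glia markers, rose as given above. DACH1 fell by 0.58, SLC1A3 by 0.39 and CDH2 by 0.24 on the log2 scale, all known from ventricular zone cells. Leaving out knockdown replicate 1, 2 or 3 gave 4 lower, leaving out control replicate 1 or knockdown replicate 3 gave 2 higher, and on log2(TPM + 1) 1 was higher.

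Of 12 tested genes that SOXC factors are known to drive in young neurons, 9 were lower, 1 was higher and 2 were not called, with a median of -0.34. Of all tested genes 25.3% were lower and 26.4% higher. INA, an intermediate filament gene, fell from 397 to 254 CPM (-0.64, edgeR adjusted p = 9.08e-12). STMN1 and STMN2, microtubule destabilisers, fell by 0.52 and 0.37, and DPYSL3, an axon growth protein, by 0.33 on the log2 scale. Pan-neuronal markers, which share 7 genes with that list, had 14 of 15 lower and no gene higher, at a median of -0.56. NEFL, SYT1, NEFM and SNAP25 had log2 fold changes of -1.41, -1.18, -1.34 and -1.04. The summed CPM of the pan-neuronal list lay at 6178 to 6250.2 in control and 4618 to 4676 in knockdown. The part of the neurons in the SOX4 and SOX11 values was not tested. DCX, a SOX11 target in mouse, had a log2 fold change of 0.03 (adjusted p = 0.537).

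Dividing cells were marked more strongly in knockdown. All 20 listed G2/M phase genes were higher, against 26.4% of all tested genes, with a median of 0.93. Their summed CPM lay at 1382 to 1451 in control and 2682 to 2749 in knockdown. TOP2A, which untangles DNA, rose 2.21-fold, the mitotic kinases CDK1 and NEK2 2.3-fold each and the cyclin CCNB2 2.1-fold. The part of the dividing cells in the SOX2 and SOX3 values was not tested. Intermediate progenitor markers showed 2 of 9 higher and 5 lower, against 26.4% and 25.3% of all tested genes, with a median of -0.30. BTG2, an antiproliferative gene, fell by 0.97, the RNA-binding gene ELAVL2 by 0.67 and INSM1 by 0.30, while HES6 rose by 0.38.

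Glial genes linked to SOXE factors and NFIA were mixed. Of 11 tested, 3 were higher and 5 lower, FABP7 again among the lower, against 26.4% and 25.3% of all tested genes. The median was -0.03. Without control replicate 1 the lower ones were 3. FGFR3 rose from 16.9 to 103 CPM (2.61, edgeR adjusted p = 6.40e-19), TNC, a matrix protein, fell from 22.7 to 10.9 CPM (-1.06), and SLC1A3, a glutamate transporter, fell as given above. NFIA was at 9.77 CPM in both groups, and GFAP, S100B, MMD2 and NFIX were too low to test.

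Markers of other cells that use SOX genes were low, with some differences. Of the oligodendrocyte precursor list 6 of 8 in the table could be tested, of which 1 was higher and 3 lower in the edgeR test. Over all tested genes 26.4% were higher and 25.3% lower. SOX10, CSPG4 (-0.83) and MBP (-0.39) fell. OLIG2 was at 3.79 and 4.52 CPM (adjusted p = 0.211). CSPG4 lost its call without knockdown replicate 2 (edgeR adjusted p = 0.0615) and in the DESeq2 Wald test (0.0943). MBP lost its call without control replicate 1, 2 or 3 or knockdown replicate 1 or 3, with an adjusted p of up to 0.135, and in the DESeq2 Wald test (0.153). The cartilage genes that SOX5, SOX6 and SOX9 activate together had 1 of 8 lower, COL9A3 (-0.87, adjusted p = 6.79e-05), and no gene higher. Leaving out control replicate 3 or knockdown replicate 2 or 3 gave 2 lower, and without knockdown replicate 3 there was also 1 higher. COL2A1 averaged 44.7 CPM in control against 45.6, and COL11A1 25.4 against 25.7. Summed CPM of the list was 99.1 to 114 in control libraries and 99.0 to 103 in the others.

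Neural crest markers had 2 of 5 tested lower, SOX10 among them, and FOXD3, TFAP2B, TWIST1 and PAX3 had 7 or fewer counts over each group. For this list and those below, the shares over all tested genes were 25.3% lower and 26.4% higher. Leaving out control replicate 2 or knockdown replicate 2 left 1 called lower. NGFR, the most abundant, had a log2 fold change of -0.13. Pluripotent cell markers had 3 of 7 lower, DNMT3B (-0.74), LIN28A and LIN28B (-0.22), and POU5F1, which partners SOX2 in stem cells, was at 0.963 and 0.99 CPM. Their summed CPM was 108 to 115 in control and 90.3 to 92.3 in knockdown, and 4 of the 7, POU5F1 among them, were not called. Retina and pigment epithelium markers had 3 of 4 higher, PMEL (2.65), MITF (0.86) and SIX3 (0.32), with summed CPM at 30.4 to 34.2 and 48.6 to 52.1. On log2(TPM + 1) 1 of the 3 kept its call and SIX3 lost it (limma adjusted p = 0.0979). The other was not tested there, under the minimum of 1 TPM in 3 libraries. Mesenchymal and endothelial markers had 2 of 4 higher, LUM (3.76, from 0.484 to 6.8 CPM) and PDGFRB (0.67), with summed CPM at 16.9 to 20.8 and 30.6 to 34.0, and COL1A2 was at 0.14. Choroid plexus and ependymal markers had 1 of 4 lower, OTX2 (-0.24), and FOXJ1 was at 2.88 and 2.56 CPM, with summed CPM at 45.5 to 47.7 and 38.4 to 41.3. No listed marker was at 0 in all 6 libraries, and DCN, RAX and FOLR1 had no count in control. The part of these cells in the SOX values was not tested.

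**Figure D4:**
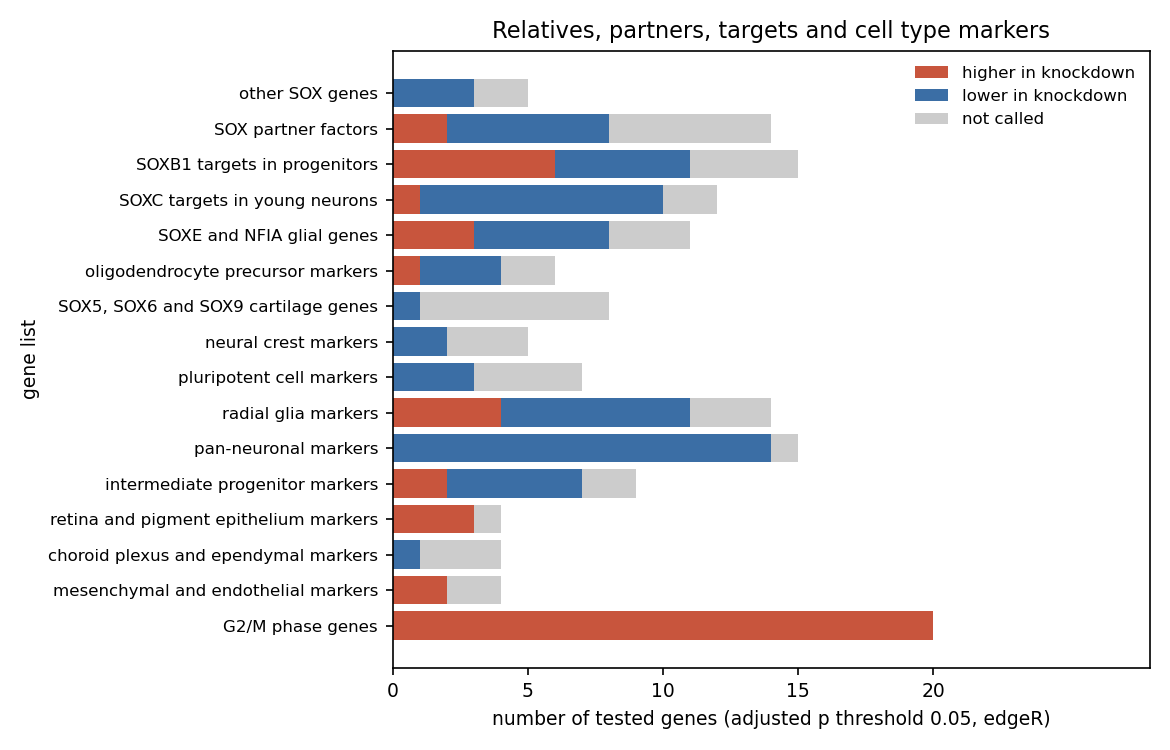
Number of tested genes of each list called higher (red), called lower (blue) or not called (grey) in FABP7 knockdown, edgeR adjusted p threshold 0.05. The G2/M bar is all higher (20 of 20) and the pan-neuronal bar 14 of 15 lower, while the SOXB1 target and radial glia bars hold both directions. Over all tested genes 26.4% were called higher and 25.3% lower.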

How the data were processed

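Bulk RNA was measured in 3 control and 3 FABP7 knockdown libraries, and the 2 single-cell libraries of the labels were not analysed here. Per the file headers, the deposited table holds estimated counts (12.6 to 14.9% not whole per library), FPKM and TPM, which the authors scaled by transcript length, and a normalized count signal that the authors made. FPKM, that signal and the authors' group means were not used. Per the submitters' processing notes the build was hg38. Not given in the sources used here are aligner, counter, annotation and strand use. Estimated counts were rounded and fitted with edgeR 4.0.16 in R 4.3.3 (TMM, filterByExpr with a minimum count of 10 and minimum total of 15, robust quasi-likelihood F-test, Benjamini-Hochberg over all tested genes). SE is the absolute log2 fold change over the root of F, and 95% intervals are normal. On simulated counts for 13468 genes with 200 changed, the fit found 42% of changes of 1.2-fold and all (100%) of 2-fold, and made 12 false calls. Every simulated gene had the same dispersion, and far fewer genes changed than the 51.7% called in the data. These rates therefore need not hold for the data, least of all for genes of larger spread.

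Alternatives used limma 3.58.1, DESeq2 1.42.0 and other filters, scalings and pseudocounts (1 and 0.1 on TPM, with a minimum of 1 TPM in 3 libraries, or unfiltered). The length and GC correction, limma-trend on log2 CPM, TPM values less their median and the SOX5 counts per TPM without each library were added after seeing the data, with lengths and GC from the longest protein-coding GENCODE 29 transcript, found for 96.13% of tested genes and all 10 members. The labels do not say what a shared replicate number means, and the main fit did not pair libraries by it. Named genes were all members, other SOX genes, up to 4 called genes of smallest p per list (all where 5 or fewer were called), plus the 2 most abundant of each list of another cell type. DCX, TUBB3, VIM, NFIA, POU5F1 and genes at or near 0 were named after their values were seen. Members and the 16 lists were chosen with earlier results of these data known. Some genes of the lists are not reported here by name.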

Additional observations from a re-analysis of the deposited data

How the results depend on the processing

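SOX2, SOX3, SOX4 and SOX21 kept their direction and call in all 19 alternatives: SOX2 ranged from 0.40 to 0.61, SOX3 from 0.32 to 0.54, SOX4 from -0.66 to -0.37 and SOX21 from -0.55 to -0.31. With a library left out 5 to 7 members were called in all, against 43.2 to 51.3% of all tested genes. The number of members called lower was 5 with library totals and 6 with log2(TPM + 1), log2(TPM + 0.1) or unfiltered TPM. On those TPM scales 1475 of 12411, 1469 of 12411 and 1456 of 17502 tested genes were higher, and 5694, 5680 and 5807 were lower. With library totals 2653 of 13468 tested genes were higher and 4390 lower. The edgeR fit without a low-count filter tested 17476 genes. Signs turned where no call was made: SOX1 without control replicate 2 (leave-one-out range -0.0613 to 0.0122) and after the length and GC correction (0.0066), SOX8 on the TPM scales (-0.0565, -0.0599 and -0.0565), and SOX12 after that correction (0.0682). COL1A2 turned on the TPM scales (-0.0301, -0.045 and -0.0301). COL2A1 turned with library totals (-0.0386), on the TPM scales (-0.15, -0.16 and -0.15) and with a library left out (-0.016 to 0.109). It was called higher after the length and GC correction (0.17, limma adjusted p = 0.011). COL11A1 turned with upper-quartile factors (-0.0088), library totals (-0.0504), at least 10 CPM (-0.0027), on the TPM scales (-0.16, -0.18 and -0.16) and with a library left out (-0.045 to 0.0705). SOX9 passed with library totals (edgeR adjusted p = 0.0434) and on the TPM scales. With a library left out, SOX4 to SOX2 differed by -1.07 to -1.02 and SOX3 to SOX2 by -0.08 to -0.05. Of 912 list counts under alternatives, 109 moved by over 1.5 times. The cause of these shifts was not tested. With the replicate number as a block, 6 members (3 higher, 3 lower) and 7114 genes were called, and of 116 values 2 moved, both the cartilage count, to 2. Same-numbered libraries deviated together by correlations of 0.0698, 0.0653 and 0.0393, and differently numbered ones by -0.121 to 0.0566. What correlation pairing would give was not tested. At this depth SOX14 and SOX17 lie near or under the floor of 3 counts.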
